A study of Mus musculus with 18 samples.

Results

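The step between 12 hours and 1 day of culture was examined in outgrowths of the ICM, the inner cell mass of the mouse blastocyst, which is the source of embryonic stem cell lines. The comparison set the 2 outgrowth libraries of day 1 against the 2 of day 0.5, which are 4 of the 18 libraries of the study. Every miRNA row of the deposited table was considered, 1390 in all. Of these, 523 were tested and 867 were not, because they did not exceed the detection floor in at least 2 of the 10 libraries of days 0 to 3. A further question was which values of day 0.5 were a passing peak and which changes began only with day 1, for which freshly isolated ICMs of day 0 served as the third point in time.

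The study followed small RNAs by sequencing while ICMs turned into stem cell lines. Embryos were E3.5 blastocysts of superovulated mice of the NMRI strain, and ICMs were freed from the trophectoderm by immunosurgery, that is, by antiserum and complement. The day 1 and day 0.5 outgrowths were grown on gelatin in R2i+LIF, a medium with leukemia inhibitory factor, the MEK inhibitor PD0325901 and SB431542, an inhibitor of TGF-beta receptor kinases. The day 0 ICMs were collected before plating, and the label of these, too, names the R2i+LIF medium. The labels give no number of ICMs pooled in a library, and no label ties replicates to different embryos or dishes. The p-values therefore measure the spread between these libraries, which may be technical.

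A mature miRNA is cut from one arm of an RNA hairpin, 5p or 3p, and guides Argonaute proteins to messenger RNAs that pair with its seed, the bases near its 5′ end. In pluripotent cells of the mouse most miRNAs come from a few clusters, among them miR-290-295, which promotes the rapid cell cycle of these cells, miR-17-92, and the imprinted Dlk1-Dio3 region, where many miRNAs are cut from non-coding RNAs expressed from the maternal chromosome. Mature miRNAs are stable, so their levels usually lag behind transcription, whereas the arm that is not loaded into Argonaute is degraded quickly.

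The sequences below are those on which the comparison turned, from RefSeq on GRCm38.p6, with seed bases 2 to 8 in capitals. The first set holds miRNAs whose day 0.5 level was a passing peak.
miR-212-5p: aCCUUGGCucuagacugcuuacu
miR-346-5p: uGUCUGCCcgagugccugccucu
miR-125a-3p: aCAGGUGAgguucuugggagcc
miR-28a-3p: cACUAGAUugugagcugcugga
miR-1247-3p: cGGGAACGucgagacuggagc
miR-5126: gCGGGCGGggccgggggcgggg
miR-2137: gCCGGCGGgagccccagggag

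miR-212-5p lies at chr11:75173403-75173425 on the plus strand, in an intron of 1700016P03Rik. miR-346-5p lies at chr14:34894624-34894646 (plus strand) in an intron of Grid1, a glutamate receptor gene. miR-125a-3p is encoded at chr17:17830855-17830876 (plus strand) in an intron of Spaca6. miR-28a-3p lies at chr16:24827908-24827929 (plus strand) in an intron of Lpp. miR-1247-3p lies at chr12:110278058-110278078 (minus strand) in an exon of Dio3os, at the far end of the Dlk1-Dio3 region. miR-5126 is placed at chr1:84695890-84695911 on the plus strand, opposite an exon of Dner, and its letters are G and C throughout. miR-2137 is placed at chrX:72992113-72992133 (plus strand) in an intron of Zfp185, and G and C make up 85.7% of it.

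The second set holds miRNAs that rose, shown to let their seeds be compared: the first 7 come from the Dlk1-Dio3 region and the other 4 from elsewhere in the genome.
miR-679-5p: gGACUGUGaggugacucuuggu
miR-758-3p: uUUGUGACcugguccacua
miR-666-5p: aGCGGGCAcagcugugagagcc
miR-667-3p: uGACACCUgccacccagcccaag
miR-541-5p: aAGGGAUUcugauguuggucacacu
miR-409-3p: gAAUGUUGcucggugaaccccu
miR-434-3p: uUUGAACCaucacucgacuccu
miR-182-5p: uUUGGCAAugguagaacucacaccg
miR-351-5p: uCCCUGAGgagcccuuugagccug
miR-301a-3p: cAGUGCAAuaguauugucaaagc
miR-19b-3p: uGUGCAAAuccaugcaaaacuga

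The Dlk1-Dio3 members lie on the plus strand of chromosome 12. miR-434-3p is at chr12:109594565-109594586, opposite an exon of Rtl1. miR-758-3p is at chr12:109712858-109712876, miR-679-5p at chr12:109715587-109715608, miR-666-5p at chr12:109717103-109717124 and miR-667-3p at chr12:109720061-109720083. miR-541-5p at chr12:109742422-109742446 and miR-409-3p at chr12:109743204-109743225 are in introns of the non-coding gene Mirg. miR-182-5p lies at chr6:30165962-30165986 (minus strand), and miR-351-5p at chrX:53053315-53053338 (minus strand). miR-301a-3p lies at chr11:87113054-87113076 (plus strand) in an intron of Ska2. miR-19b-3p has copies at chr14:115044358-115044380, in the cluster host Mir17hg, and at chrX:52741991-52742013.

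The third set holds miRNAs whose main fall came with day 1, from a level that in most of them was already lower on day 0.5 than on day 0.
miR-3473e: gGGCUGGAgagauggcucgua
miR-3473a: uGGAGAGAuggcucagca
miR-8114: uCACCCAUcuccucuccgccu
miR-7211-5p: uCUUUCCCucugccacuccacc
miR-6948-3p: uGUCCUUCcugucugaccaca
miR-7058-3p: cUCGUUCCuuccuuucuuccag
miR-3473e (chr5:31667296-31667316, minus strand, intron of Rbks) and miR-3473a (chrX:162874920-162874937, minus strand, intron of Syap1) share a run of 14 bases, UGGAGAGAUGGCUC, but it starts at different distances from their 5′ ends, so their seeds differ. miR-8114 lies at chr1:153899989-153900009 (plus strand) in an exon of Glul, the glutamine synthetase gene.

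Values were normalized counts, which the authors deposited as whole numbers. The 4 libraries were shallow: from the even spacing of low values they held an estimated 176656 and 336561 reads on day 1, against 369345 and 212812 on day 0.5, so the depths of the groups overlapped. The lowest listed value corresponded to about 5 reads in each library, and a miRNA below that was listed at 0. Values below a common floor of 27.2 normalized counts, 5 reads in the shallowest library of days 0 to 3, were therefore raised to it before taking log2. At 5 reads the Poisson error is 44.7% of the value, and it covers counting error only. Above the floor were 325 and 373 miRNAs on day 1, against 423 and 436 on day 0.5. Replicates had a Pearson r across miRNAs of 0.975 on day 1 and 0.947 on day 0.5, and neither pair agreed within sampling noise (chi-square per miRNA of 9.7 and 32.9, where sampling alone gives about 1). All tests were limma fits across the 523 miRNAs and 10 libraries with Benjamini-Hochberg adjustment. An exact permutation test of 2 libraries against 2 could not give a p below 0.333.

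Between day 0.5 and day 1 the miRNA profile changed in an uneven way. A small set of Dlk1-Dio3 miRNAs, miR-182-5p and miR-351-5p rose. A larger set fell, mostly low and moderately abundant miRNAs of which many came near the floor, but also the abundant miR-5126. No member of the miR-290-295 or miR-302/miR-367 clusters passed the test. Of the 523 tested miRNAs 54 changed at a limma adjusted p below 0.05 (10.3%), 18 of them higher on day 1 (3.44%) and 36 lower (6.88%). At an unadjusted p below 0.05 the share was 24.7%. Both day 1 libraries lay above both day 0.5 libraries for 19.3% of tested miRNAs and below them for 27.5%. With 2 libraries against 2, random order alone gives groups without overlap for 33.3% of miRNAs, counting both directions. The median change over all tested miRNAs was -0.11 on the log2 scale. After rescaling each library by its sum over entries numbered below 1900, that median was -0.29, and 11 were higher and 51 lower. The counts rest on few libraries: without day 1 replicate 1 there were 4 higher and 14 lower, without day 1 replicate 2 there were 6 and 29, and without day 0.5 replicate 2 there were 5 and 20, each with the lone library assumed to vary like the other groups. In bulk samples fewer cells of a type and less RNA per cell cannot be told apart.

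**Figure D1:**
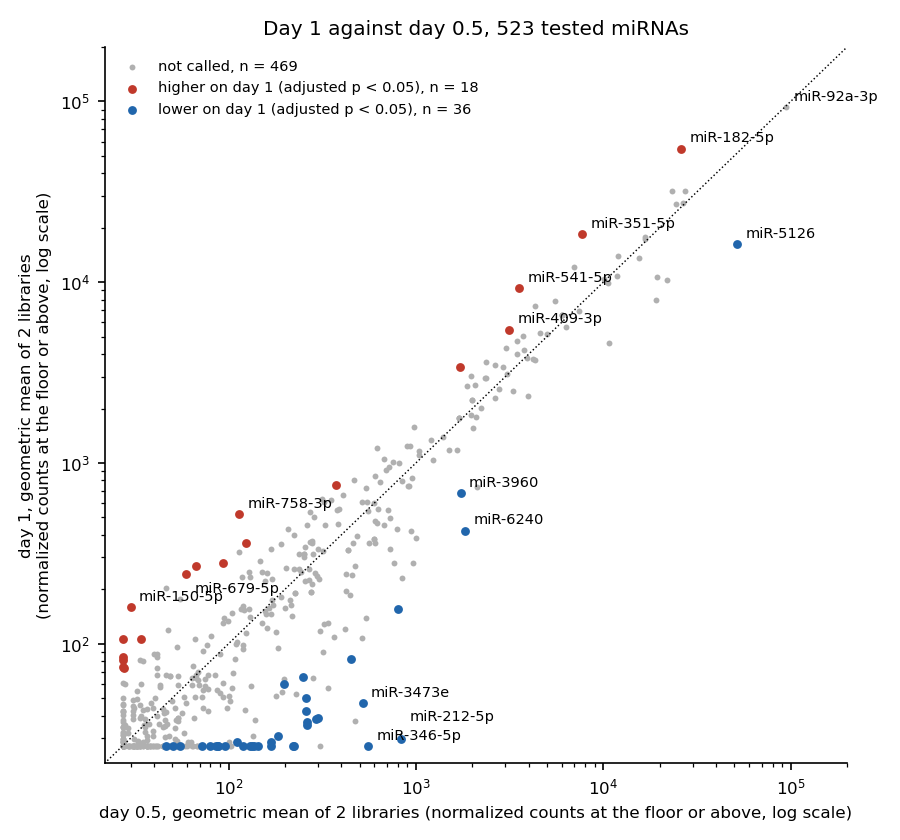
Each point is 1 of the 523 tested miRNAs, with the geometric mean of the 2 day 0.5 libraries on the x axis and of the 2 day 1 libraries on the y axis, in normalized counts raised to the floor, on log scales; the dotted line marks equal values. The 18 miRNAs higher on day 1 reach up to miR-182-5p, whereas many of the 36 lower ones, among them miR-212-5p and miR-346-5p, lie on or near the floor of 27.2.

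A passing peak was defined by 1 contrast, day 0.5 minus the mean of days 0 and 1, with both day 0.5 libraries above all 4 libraries of days 0 and 1. In total 18 miRNAs met it at a limma adjusted p below 0.05 (3.44% of those tested). The peak and the comparison of day 1 with day 0.5 use the same day 0.5 libraries, so both values are given for each miRNA but neither supports the other. The count of peaks was 7 without day 0.5 replicate 2, 10 without day 1 replicate 2 and 32 without day 0 replicate 2.

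miR-212-5p, which is transcribed together with miR-132 from a locus that responds to the transcription factor CREB in neurons, made the sharpest peak. It was listed at 98 and 47 normalized counts on day 0, at 672 and 1029 on day 0.5, and at 0 and 32 on day 1. The day 1 values stand for 0 and 16 reads, and those of day 0.5 for 388 and 291 reads. Both day 0.5 libraries thus lay far above all others, and on days 2 and 3 the miRNA was at 0 except for 11 normalized counts in one day 3 library. Its peak contrast was 4.22 on the log2 scale (SE 0.37, limma adjusted p = 0.00131), and day 1 minus day 0.5 was -4.82 (SE 0.43, limma adjusted p = 0.00168), the largest fall of the comparison, which passed with each library left out but not on the values as deposited with 1 added. Its partner arm miR-212-3p, the usual guide of the hairpin, was at 0 in all 10 libraries of days 0 to 3. miR-132-3p, from the same transcript, was at 0 in both day 1 libraries and at 12 and 0 in the day 0.5 libraries.

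miR-346-5p averaged 80 ± 75.0 normalized counts on day 0 (SD, n = 2), had 300 and 1033 on day 0.5, and 0 and 16 on day 1. The day 0.5 libraries differed by more than 3 times from each other but did not overlap with any of the other days. The peak contrast was 3.78 (SE 0.68, limma adjusted p = 0.0168) and the change to day 1 -4.36 (SE 0.78, adjusted p = 0.00957). The fall did not pass without day 0.5 replicate 2 or without either day 1 library, nor on the values as deposited with 1 added. miR-346-3p, the other arm, was listed at 909 in day 0.5 replicate 2, at 9 in replicate 1, and at 0 in the other libraries of days 0 to 3.

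For several hairpins the peak contrast was met by the arm that is normally the less abundant one, and not by its partner. A contrast met by an arm and missed by its partner does not show that the arms differ. The arm balance on day 1 against day 0.5, described below, passed for none of the hairpins named here. miR-125a-3p, whose partner miR-125a-5p is a homolog of the worm timing miRNA lin-4, had 60 and 0 normalized counts on day 0, 182 and 184 on day 0.5, and 35 and 12 on day 1. Its peak contrast was 2.37 (SE 0.49, limma adjusted p = 0.0298), and day 1 against day 0.5 differed by -2.57 (SE 0.57, adjusted p = 0.0222), a call that did not pass when any 1 of the 4 libraries of the comparison was left out. The call was also lost on the values as deposited with 1 added. The main arm miR-125a-5p had 4444 and 4015 on day 1 and 4195 and 3393 on day 0.5, which did not pass the test (adjusted p = 0.851). miR-28a-3p had 44 and 65 normalized counts on day 0, 338 and 396 on day 0.5, and 145 and 81 on day 1. It met the peak contrast (2.26, SE 0.41, limma adjusted p = 0.0168), while its change to day 1 of -1.76 missed the threshold (adjusted p = 0.054). Its partner miR-28a-5p had 92 and 161 on day 0, 282 and 283 on day 0.5, and 344 and 286 on day 1. miR-1247-3p had 0 and 22 on day 0, 158 and 248 on day 0.5, and 39 and 103 on day 1, with a peak contrast of 2.25 (SE 0.43, adjusted p = 0.019) and a change to day 1 of -1.64 (adjusted p = 0.0759).

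Of the peaks 3 were abundant, with a mean above 1000 normalized counts over the 4 libraries, and all 3 are entries numbered 1900 and above in miRBase. miR-5126 was at 11241 and 11882 normalized counts on day 0, 40560 and 66294 on day 0.5, and 14900 and 17534 on day 1. It contributed more counts on day 0.5 than any miRNA except miR-92a-3p. Its peak contrast was 1.92 (SE 0.23, limma adjusted p = 0.0018), and day 1 against day 0.5 gave -1.68 (SE 0.26, adjusted p = 0.00676), lost without day 1 replicate 1. It did not stop at the level of day 0: 6930 and 5775 followed on day 2 and 5162 and 3647 on day 3. miR-3960 had 326 and 291 on day 0, 1492 and 2016 on day 0.5, and 653 and 712 on day 1 (peak 1.92, SE 0.19, adjusted p = 0.00131). Day 1 against day 0.5 gave -1.35 for miR-3960 (SE 0.22, limma adjusted p = 0.00676), a call lost without day 1 replicate 1. The peak was not the end of its course, since it was at 578 and 512 on day 2 and again at 1448 and 1251 on day 3. miR-2137 had 6564 and 4161 on day 0, 17870 and 21116 on day 0.5, and 10831 and 10619 on day 1 (peak 1.38, SE 0.24, adjusted p = 0.0137). Day 1 against day 0.5 gave -0.86 for it (adjusted p = 0.091), and most of its fall came later, with 938 and 756 on day 2.

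The other 10 peaks had means below 100 normalized counts over the 4 libraries. Of all 18 peaks 11 were entries numbered 1900 and above, beside 29.4% of all tested miRNAs. An example, chosen after its values were seen, is miR-6385, which was at 0 in both libraries of days 0, 1, 2 and 3 and at 163 and 127 normalized counts on day 0.5, that is at 94 and 36 reads. Its difference at the floor, -2.40 for day 1 against day 0.5 (SE 0.28, limma adjusted p = 0.00375), is a lower bound in size. For all 18 peaks the 4 libraries of days 2 and 3 lay below both day 0.5 libraries, beside 169 of the 523 tested miRNAs. The 18 were chosen for high values on day 0.5, which favors lower values later by itself.

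**Figure D2:**
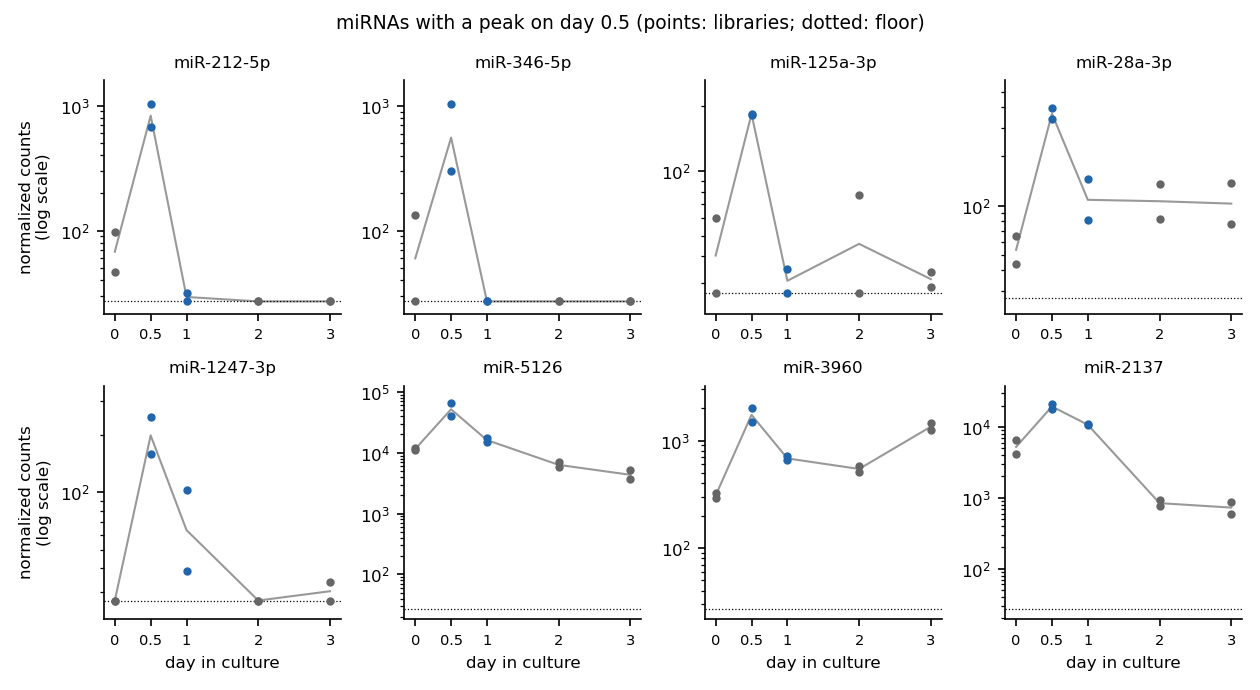
Normalized counts (log scale, values below the floor drawn at the dotted floor of 27.2) of the 8 named peak miRNAs against day in culture; points are libraries, blue on days 0.5 and 1, and lines join geometric means. miR-212-5p and miR-346-5p return to the floor on day 1, miR-5126 and miR-2137 go on falling, and miR-3960 is high again on day 3.

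The opposite pattern, a passing low on day 0.5, was met by 3 miRNAs (0.574% of those tested), by 8 without day 0 replicate 2, and by 1 without day 0.5 replicate 2, day 1 replicate 2 or either day 2 library. miR-351-5p, an X-linked miRNA of rodents with the seed of miR-125, had 13008 and 13913 normalized counts on day 0, 8660 and 6863 on day 0.5, and 19036 and 17712 on day 1. Its day 0.5 libraries were the lowest of days 0 to 3. The contrast was -1.03 (SE 0.22, limma adjusted p = 0.0321), and day 1 against day 0.5 rose by 1.25 (SE 0.25, adjusted p = 0.0139), a call that was lost without day 0.5 replicate 2 or either day 1 library. The remaining pair had means under 100 and are named because they complete the count. miR-150-5p, known for controlling lymphocyte maturation, had 65 and 81 on day 0, 33 and 21 on day 0.5, and a mean of 167 ± 70.7 on day 1 (SD, n = 2), with 667 and 554 on day 2. Its change from day 0.5 was 2.41 (SE 0.40, adjusted p = 0.00736), the largest rise of the comparison, lost without day 0.5 replicate 2. miR-6954-5p had 179 and 226 on day 0, 23 and 21 on day 0.5, 98 and 115 on day 1, and 0 in all libraries of days 2 and 3.

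A change was said to start with day 1 when day 1 differed from the mean of days 0 and 0.5, both day 1 libraries lay beyond all 4 libraries of those days, and the earlier difference was under 50% of the later one. By this rule 15 miRNAs started to rise (2.87%), and 6 of them were of the Dlk1-Dio3 region, beside 55 of the 523 tested miRNAs. There were 5 without day 1 replicate 1 and 6 without day 1 replicate 2.

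miR-679-5p averaged 243.5 ± 37.5 normalized counts on day 1 (SD, n = 2), from 69 and 109 reads, against 59.5 ± 6.36 on day 0.5, from 32 and 18 reads. Day 1 was about 4 times as high, with a log2 change of 2.03 (SE 0.31, limma adjusted p = 0.00594), and this call was kept under every alternative setting and with each library left out. It went on to 383 and 519 on day 2 and 520 and 583 on day 3. miR-758-3p had 653 and 417 on day 1, against 152 and 85 on day 0.5, a change of 2.20 (SE 0.39, adjusted p = 0.00957). The day 0 libraries had 158 and 87, so nothing had moved in the first 12 hours beyond the spread of the replicates, and day 2 reached 1500 and 1474. miR-666-5p had 297 and 246 on day 1, against 55 and 81 on day 0.5 (2.02, SE 0.32, adjusted p = 0.00676). miR-667-3p had 266 and 290 on day 1, against 88 and 99 on day 0.5 (1.57, SE 0.33, adjusted p = 0.0154). Without day 1 replicate 1 none of miR-758-3p, miR-666-5p and miR-667-3p passed, without day 0.5 replicate 2 neither miR-758-3p nor miR-667-3p did, and miR-667-3p also needed the other library of each day. With only the groups compared the limma adjusted p of miR-758-3p was 0.0517.

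The most abundant miRNA of the region, miR-541-5p, had 9842 and 8793 normalized counts on day 1, against 4371 and 2904 on day 0.5. The groups did not overlap, and day 0, at 3796 and 3746, fell between the day 0.5 libraries. Its log2 change was 1.38 (SE 0.32, limma adjusted p = 0.0264), which did not pass without day 0 replicate 1, day 0.5 replicate 2 or either day 1 library, nor without the trend and robust options (adjusted p = 0.0565). On day 2 it was at 20212 and 29179. miR-543-3p had 184 and 169 on day 1, against 66 and 46 on day 0.5. It met the start contrast (1.79, SE 0.47, adjusted p = 0.033) but not the comparison of day 1 with day 0.5 (1.68, adjusted p = 0.0954).

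Not every Dlk1-Dio3 miRNA that rose began here. miR-409-3p had 5265 and 5662 normalized counts on day 1, against 2940 and 3339 on day 0.5, a change of 0.80 (SE 0.15, limma adjusted p = 0.0116). It had already risen before, with 1718 and 1693 on day 0 and a change of 0.88 to day 0.5 (adjusted p = 0.00964). miR-434-3p, cut from the strand opposite Rtl1, had 3815 and 3005 on day 1 and 1668 and 1786 on day 0.5 (0.97, SE 0.22, adjusted p = 0.0239). Its day 0 libraries had 1338 and 1057. The call of miR-409-3p was lost without either day 1 library, and that of miR-434-3p without any 1 library of days 0.5, 1 and 2. miR-434-3p also missed the threshold with only the groups compared (adjusted p = 0.0517), with the replicate block (0.0508) and with equal totals (0.083). After rescaling by entries numbered below 1900 the limma adjusted p was 0.16 for miR-434-3p, 0.0864 for miR-409-3p and 0.0812 for miR-667-3p.

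**Figure D3:**
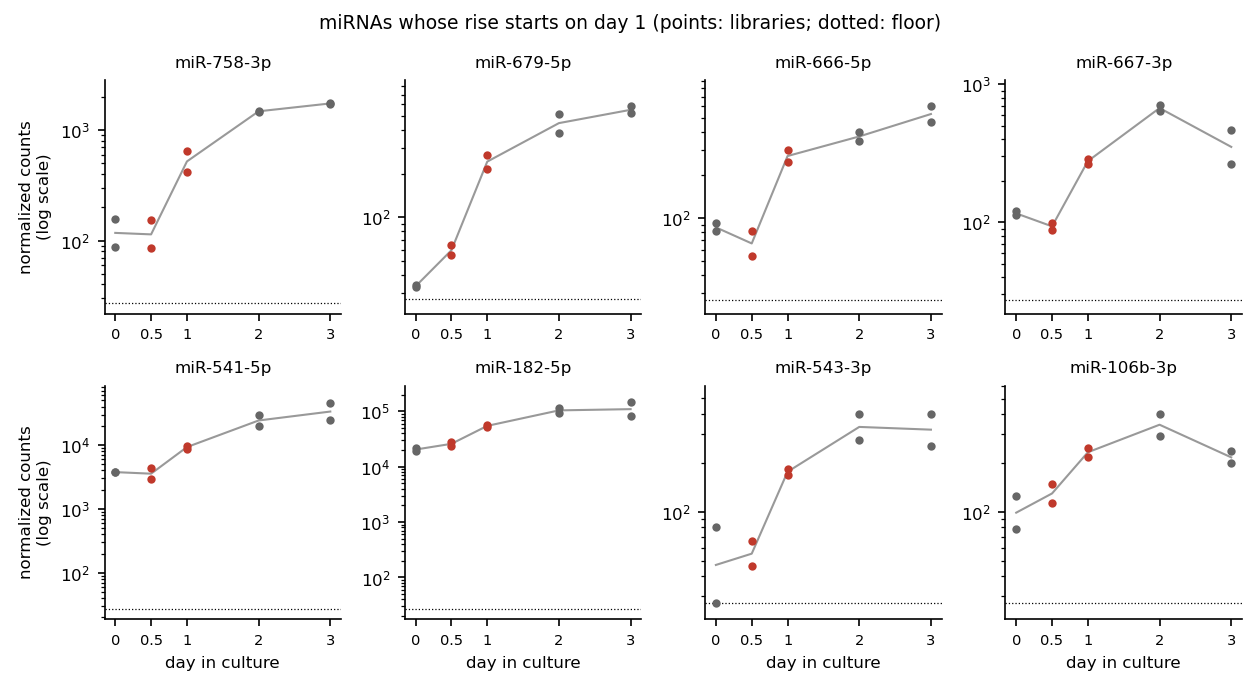
Normalized counts (log scale, dotted floor of 27.2) of the 8 named miRNAs whose rise started with day 1, against day in culture; points are libraries, red on days 0.5 and 1, and lines join geometric means. In all 8 panels both day 1 points lie above the 4 points of days 0 and 0.5, and miR-758-3p, miR-679-5p and miR-541-5p are higher still on day 2.

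Of the 101 rows of the Dlk1-Dio3 region 55 were tested. In that list 7 rose (12.7%, beside 3.44% of all tested miRNAs) and 0 fell, 40 changes were positive and 11 negative, and the median was 0.44, beside -0.11 for all. The median stayed positive under each alternative scaling. By section, the 9 tested members opposite Rtl1 had a median of 0.79 with 1 rise, the 7 at the distal end around miR-541 a median of 0.31 with 2 rises, and the 11 near Meg3 and Rian a median of 0.24 with 0 rises. The 28 remaining tested members, among them miR-758, miR-679, miR-666 and miR-667, had a median of 0.64 with 4 rises. Of all normalized counts the region held 4.9% and 4.8% on day 1, against 2.76% and 2.54% on day 0.5. Day 0 stood at 2% and 2.11%, and days 2 and 3 at 7.72% to 10.8%. The list does not hold miR-1247 at Dio3os, of which both arms were lower on day 1: miR-1247-5p averaged 361.5 ± 19.1 normalized counts on day 1, against 568 ± 87.7 on day 0.5 (SD, n = 2 each; -0.64, limma adjusted p = 0.692), and miR-1247-3p is given above. No list was tested as a set, so nothing is claimed to be particular to the region.

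Outside the region the most abundant riser was miR-182-5p, of a cluster best known from sensory organs. It had 57339 and 52231 normalized counts on day 1, against 28448 and 23645 on day 0.5, so that both day 1 libraries were above both of day 0.5. The log2 change was 1.08 (SE 0.26, limma adjusted p = 0.0347), which did not pass when any 1 library of days 0 to 2 was left out. It also missed the threshold without both day 0 libraries (adjusted p = 0.0514), with the replicate block (0.0586) and without the trend and robust options (0.0754). Day 0 had 19224 and 21746. The neighbours in its cluster did not pass: miR-183-5p had 3369 and 3854 on day 1 and 2481 and 2253 on day 0.5 (adjusted p = 0.569), and miR-96-5p had 35 and 99 on day 1, against 57 and 50 on day 0.5. The cluster as a whole held 8.84% and 8.45% of normalized counts on day 1, against 4.9% and 3.48% on day 0.5, almost all of it miR-182-5p.

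miR-351-5p, described above for its low on day 0.5, was the only called member of the miR-322/miR-503 cluster on the X chromosome. Of its 6 tested members 5 changes were positive, with a median of 0.62. Over all 523 tested miRNAs 3.44% rose, 197 changes were positive and 287 negative, and the median was -0.11. miR-322-5p, a miR-15/16 relative that acts on the cell cycle, had 719 and 620 normalized counts on day 1, against 326 and 506 on day 0.5 (0.72, SE 0.25, limma adjusted p = 0.127).

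Elsewhere, miR-19b-3p and miR-301a-3p rose. miR-19b-3p, a member of the miR-17-92 cluster, had 379 and 344 normalized counts on day 1, against 149 and 103 on day 0.5 (1.54, SE 0.34, limma adjusted p = 0.0223). It had been at 266 and 177 on day 0. miR-301a-3p, of the miR-130 family, had 786 and 723 on day 1, against 374 and 371 on day 0.5 (1.02, SE 0.22, adjusted p = 0.0209). It too had been higher on day 0, at 631 and 450. Both calls missed the threshold when libraries were scaled to equal totals. They were lost as well without day 0.5 replicate 2 or either day 1 library, miR-19b-3p also without either day 2 library and miR-301a-3p without day 0.5 replicate 1. miR-106b-3p, cut from an intron of the replication gene Mcm7, started with day 1 by the rule above, with 233.5 ± 20.5 on day 1 and 131 ± 25.5 on day 0.5 (SD, n = 2 each), and a start contrast of 1.04 (SE 0.31, adjusted p = 0.0498), while day 1 against day 0.5 did not pass (0.84, SE 0.35, adjusted p = 0.184). Of the 15 starts upward, 11 had all 4 libraries of days 2 and 3 above both day 0.5 libraries, beside 105 of the 523 tested miRNAs. The 15 were chosen for lying above day 0.5 on day 1.

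Falls that started with day 1 were more frequent, 28 miRNAs (5.35%). Of these 23 were entries numbered 1900 and above, beside 29.4% of all tested miRNAs. There were 11 without day 1 replicate 1 and 17 without day 1 replicate 2. miRBase numbers its entries in the order of discovery, so high numbers are late additions, many of them known from sequencing alone. miR-3473e had 0 and 81 normalized counts on day 1, against 386 and 697 on day 0.5, a change of -3.47 (SE 0.59, limma adjusted p = 0.00791). Day 0 was at 1713 and 1612, so its level was already below that of day 0 in both day 0.5 libraries (-1.68, adjusted p = 0.123). miR-3473a had 0 and 54 on day 1, against 265 and 325 on day 0.5 (-2.94, SE 0.54, adjusted p = 0.0111), and its day 0 values were 386 and 419. Neither call passed without day 0.5 replicate 2 or day 1 replicate 1.

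miR-8114 had 23 and 26 normalized counts on day 1, against 189 and 262 on day 0.5 (-3.03, SE 0.37, limma adjusted p = 0.00375). It had started at 359 and 589 on day 0. miR-709 had 20 and 0 on day 1, against 156 and 311 on day 0.5 (-3.02, SE 0.44, adjusted p = 0.0049). miR-7211-5p had 0 and 56 on day 1, against 253 and 354 on day 0.5 (-2.94, SE 0.42, adjusted p = 0.00465). In each of these the day 0.5 libraries were below both of day 0, and the day 1 libraries were near or under the floor.

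miR-1940 had 20 and 46 normalized counts on day 1, against 246 and 279 on day 0.5 (-2.89, SE 0.40, limma adjusted p = 0.00404). miR-6948-3p had 31 and 44 on day 1, against 213 and 322 on day 0.5 (-2.83, SE 0.35, adjusted p = 0.00375), and its fall passed under every alternative setting. miR-7058-3p had 47 and 38 on day 1, against 237 and 283 on day 0.5 (-2.62, SE 0.35, adjusted p = 0.00404). miR-6982-3p had 59 and 115 on day 1, against 331 and 612 on day 0.5 (-2.45, SE 0.48, adjusted p = 0.0132), which was lost without day 0.5 replicate 2 or day 1 replicate 1. Most stayed low afterwards: for 26 of the 28 all libraries of days 2 and 3 lay below both of day 0.5, beside 169 of the 523 tested miRNAs, and the 28 were chosen for lying below day 0.5 on day 1.

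Of the 669 rows numbered 1900 and above 154 were tested. In that list 27 fell (17.5%, beside 6.88% of all tested miRNAs) and 4 rose (2.6%), 127 changes were negative and 18 positive, and the median was -0.74. Among the 369 other tested miRNAs 9 fell and 14 rose, with a median of 0.00. The high-numbered entries held 13.5% and 15.4% of normalized counts on day 1, against 23.6% and 31.5% on day 0.5. Their share was 18.5% and 18.9% on day 0, and 7.92% and 6.5% on day 2. Day 0.5 replicate 2 carried the largest share of any library of days 0 to 3, and its part in the falls was not tested beyond leaving it out. Of the 36 falls 26 had at least 1 day 1 library at or below the floor. Both libraries were there for 18 of the 36, beside 135 of the 523 tested miRNAs. The sizes of these 26 changes are therefore set in part by the floor. On the values as deposited with 1 added, 38 miRNAs fell, of which 11 were among the 36. miR-3473e, miR-3473a, miR-8114, miR-709, miR-7211-5p, miR-1940, miR-7058-3p and miR-6982-3p were not among those 11. Nor were miR-212-5p, miR-346-5p, miR-125a-3p, miR-125b-2-3p, miR-30d-3p, miR-133a-3p and miR-221-5p.

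**Figure D4:**
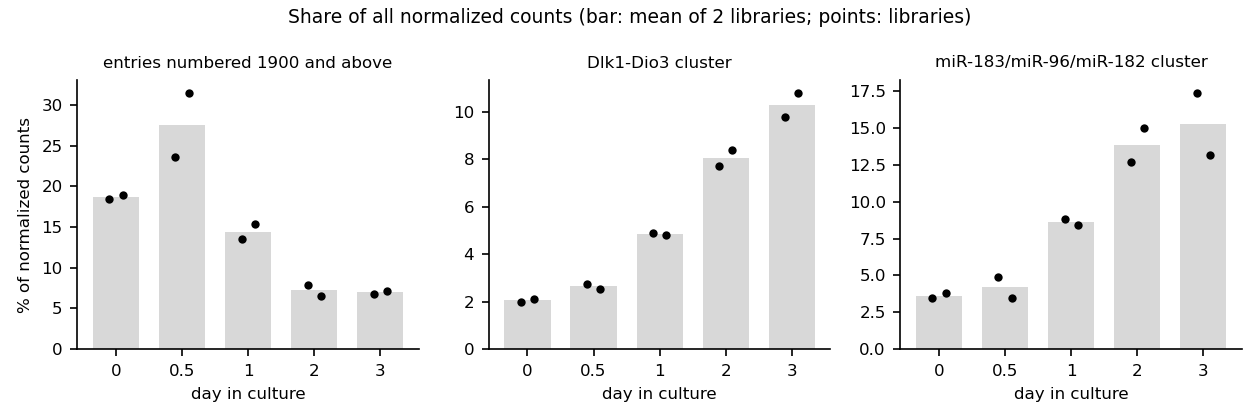
Share of all normalized counts in percent, from 0, for 3 groups of miRNAs against day in culture (days 0, 0.5, 1, 2 and 3 as evenly spaced categories); bars are means of 2 libraries and points the libraries. The high-numbered entries peak on day 0.5 at 23.6% and 31.5%, whereas the Dlk1-Dio3 region, at 2.76% and 2.54% on day 0.5, is highest on day 3, as is the mean of the cluster of miR-182.

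The miR-290-295 and miR-302/miR-367 clusters, both typical of pluripotent cells, had no call in either direction. Of the miR-290-295 cluster 14 members were tested and 0 called, beside 10.3% of all tested miRNAs, with a median of 0.19. Its most abundant member miR-295-3p had 35731 and 28908 normalized counts on day 1, against 24820 and 21625 on day 0.5 (0.47, SE 0.17, limma adjusted p = 0.127). These groups did not overlap, but the change was within what the adjustment over 523 miRNAs allows. The cluster held 14.5% and 12.7% of normalized counts on day 1, against 12.5% and 10.4% on day 0.5. The related miR-302/miR-367 cluster, of the primed state, was at the edge of detection: miR-302d-3p had 35 and 60 on day 1, against 0 and 18 on day 0.5 (adjusted p = 0.357). Of the Sfmbt2 cluster, which is prominent in trophoblast, 36 members were tested and 0 called (median 0.06). The medians of the miR-290-295 and Sfmbt2 clusters turned negative, -0.03 and -0.14, with libraries rescaled by the entries numbered below 1900.

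Among the other lists 0 of 10 let-7 members were called, a family that marks differentiation, with a median of -0.18. let-7f-5p had 3702 and 3893 normalized counts on day 1 and 3496 and 4362 on day 0.5 (limma adjusted p = 0.973). Of miR-17-92 and its paralogs 1 of 21 rose, and of the miR-200 family 0 of 8 and of the miR-15/miR-16 family 0 of 5 were called. Over all tested miRNAs 3.44% rose and 6.88% fell, so lists of this size would hold few calls in any case. In the miR-200 family miR-141-5p met the start rule, at 0 on days 0 and 0.5 and 35 and 52 on day 1 (start contrast 0.65, SE 0.18, limma adjusted p = 0.0455). The 11 tested miRNAs known to bypass Drosha had 0 calls and a median of 0.00, led by miR-320-3p with 3080 and 2816 on day 1 and 2237 and 2423 on day 0.5. The germ-cell X-linked cluster had 0 of 21 called; miR-470-5p was at 10089 and 10740 on day 1 and 9065 and 11133 on day 0.5. The miR-29 family had 0 members that could be tested.

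Smaller families had at most 1 call each way, except the list of miR-125, miR-99 and miR-100, in which 2 of 8 fell, miR-125a-3p and miR-125b-2-3p. Over all tested miRNAs 10.3% were called. In the miR-130/miR-301 family 1 of 5 rose, miR-301a-3p, and the most abundant member miR-130a-3p had 872 and 821 normalized counts on day 1, against 506 and 729 on day 0.5 (limma adjusted p = 0.211). Of the 3 tested arms of miR-221 and miR-222 1 rose, miR-222-3p, and 1 fell, miR-221-5p. In the list of stress and growth factor responsive miRNAs 1 of 6 fell, miR-212-5p, while its most abundant member miR-22-3p had 13837 and 13489 on day 1 and 14161 and 17094 on day 0.5. In the miR-30 family 1 of 10 fell, miR-30d-3p.

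Among lists with 0 calls, miR-16-5p, a brake on the cell cycle, had 5089 and 5372 normalized counts on day 1 and 4638 and 4563 on day 0.5. miR-200b-3p, which maintains the epithelial state, had 1270 and 1222 on day 1, against 977 and 821 on day 0.5, groups that did not overlap but did not pass (limma adjusted p = 0.132). miR-26a-5p had 6649 and 7225 on day 1 and 6691 and 8144 on day 0.5. For miR-27b-3p the values were 2881 and 3375 on day 1 and 2582 and 3651 on day 0.5, and its list with miR-23 and miR-24 had 0 of 6 called and a median of -0.35. miR-148a-3p had 4288 and 4406 on day 1, against 3072 and 2993 on day 0.5 (adjusted p = 0.335). miR-34a-5p, a target of p53, was near the floor, with 43 and 10 on day 1 and 31 and 0 on day 0.5.

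**Figure D5:**
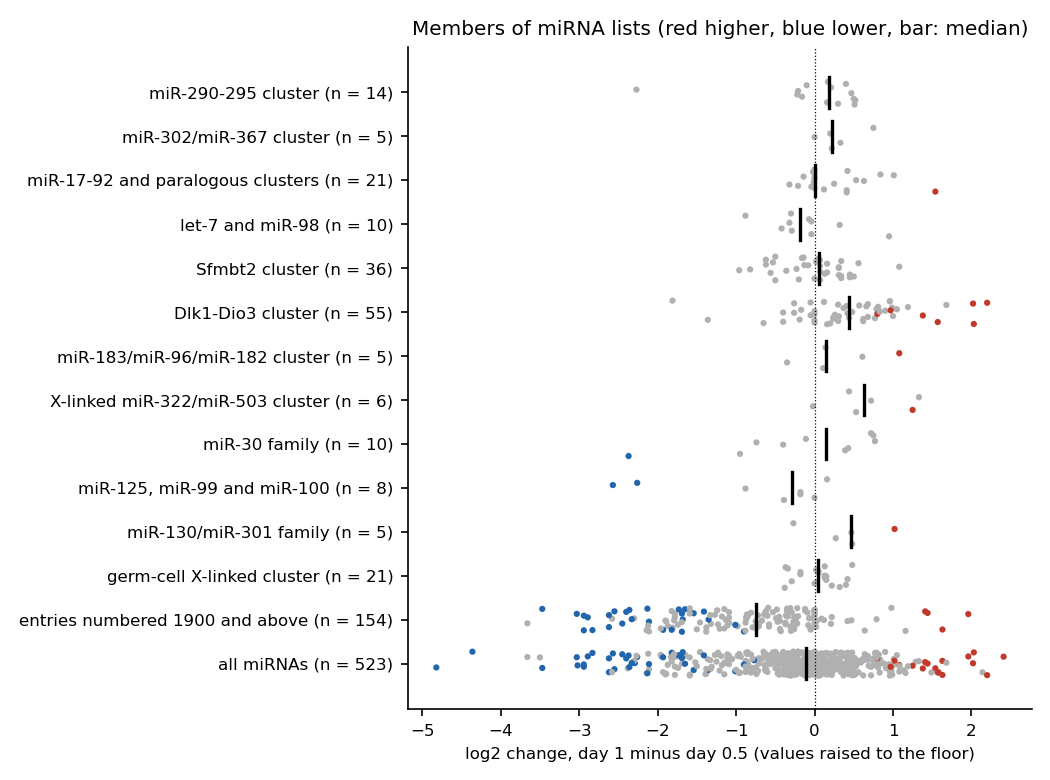
Log2 change of day 1 minus day 0.5 (x axis, values raised to the floor) for each tested member of 13 miRNA lists and of all 523 tested miRNAs; red points rose, blue points fell, grey points passed no test, and the bar is the median. The Dlk1-Dio3 members center at 0.44 with 7 red points, and the entries numbered 1900 and above at -0.74 with 27 blue points.

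Among the most abundant miRNAs miR-5126 fell and miR-182-5p rose, as described above. The others named for their abundance did not pass the test of day 1 against day 0.5. Not all of them were steady, since miR-295-3p, also given above, was higher in both day 1 libraries than in both of day 0.5. miR-92a-3p, which is cut from miR-17-92 and its X-linked paralog, led all 4 libraries with 96599 and 89332 normalized counts on day 1 and 91648 and 96222 on day 0.5 (-0.02, SE 0.14, limma adjusted p = 1). miR-423-5p had 27076 and 27578 on day 1 and 25384 and 27731 on day 0.5, and miR-292-5p had 28816 and 25547 on day 1 and 24023 and 24629 on day 0.5. miR-298-5p had 17433 and 17164 on day 1 and 15751 and 17578 on day 0.5. miR-3968 was lower on day 1, at 9240 and 11444, than on day 0.5, at 16380 and 29182, without passing the test (-1.09, SE 0.36, adjusted p = 0.0998). miR-92b-3p had 16589 and 19032 on day 1 and 14159 and 19669 on day 0.5. miR-5099 had 31458 and 32102 on day 1 and 23271 and 31937 on day 0.5 (adjusted p = 0.817).

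The balance of the 2 arms of a hairpin was tested for 50 pairs, and 1 passed (2.00%; 6 at an unadjusted p below 0.05, 12.0%). miR-30d-5p had 8341 and 6469 normalized counts on day 1, against 4628 and 3990 on day 0.5, while miR-30d-3p had 43 and 58 on day 1, against 189 and 354 on day 0.5. The 5p arm was higher and the 3p arm lower on day 1 in every library. The log2 ratio of 5p to 3p was 7.20 on day 1 and 4.05 on day 0.5, a difference of 3.15 (SE 0.62, limma adjusted p = 0.0235), which was lost without day 0.5 replicate 2 or day 1 replicate 1. The next pairs did not pass: miR-125a differed by 2.73 (adjusted p = 0.0562), miR-28a by 1.91 (adjusted p = 0.0985), and miR-149 and miR-877 by 2.61 and 1.29 (both adjusted p = 0.298). Over all 50 pairs the less abundant arm had a median change of -0.01 and the more abundant arm one of 0.14, so the less abundant arms were split evenly between the directions.

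Of the 54 called miRNAs 42 had a RefSeq mature sequence, and these held 42 different seeds. Only 9 of these seeds were shared with another tested miRNA, and 0 had more than 1 called member. miR-351-5p carries the seed CCCUGAG together with miR-125a-5p and miR-125b-5p, which changed by 0.16 and -0.18 without passing. miR-301a-3p carries AGUGCAA with miR-130a-3p and miR-130b-3p, whose values were 0.48 and 0.27. miR-19b-3p shares GUGCAAA with miR-19a-3p, which had 168 and 42 normalized counts on day 1, against 64 and 18 on day 0.5 (limma adjusted p = 0.52).

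Of the miRNAs that mark other cell types some were absent and some present, and several of these are also made by embryonic cells. The 5 markers miR-124-3p of neurons, miR-451a of red blood cells, miR-145a-5p and miR-214-3p of fibroblasts and smooth muscle, and miR-144-5p of blood were at 0 in all 4 libraries, and miR-122-5p of liver was at 0 in all but 1, with 9 normalized counts. The 16 fibroblast and smooth muscle rows summed to 14102 and 14546 on day 1, against 9926 and 9639 on day 0.5, of which miR-10b-5p alone had 11926 and 12440 on day 1, against 7372 and 6587 on day 0.5 (0.81, limma adjusted p = 0.211). Also present in that list were miR-143-3p, with 332 and 437 on day 1 and 485 and 736 on day 0.5, and miR-199a-3p, with 367 and 296 on day 1 and 353 and 527 on day 0.5. The 8 blood rows summed to 528 and 667 on day 1 and to 544 and 566 on day 0.5. Of its 4 tested members 1 rose, miR-150-5p, described above for its low on day 0.5 (2.41, SE 0.40, limma adjusted p = 0.00736). The other 3 changes in the blood list were negative and did not pass. Among these, miR-486-5p had means of 191.5 on day 1 and 226 on day 0.5. For miR-142-5p the means were 225 on day 1 and 270 on day 0.5. The 19 neural rows summed to 630 and 784 on day 1, against 918 and 1009 on day 0.5, with miR-128-3p at 356 and 435 on day 1 and 424 and 559 on day 0.5. The 2 endothelial rows, both of miR-126a, summed to 94 and 269 on day 1 and to 116 and 85 on day 0.5. The 8 endoderm and liver rows summed to 1336 and 1430 on day 1, against 1638 and 2182 on day 0.5, most of it miR-192-5p. In the striated muscle list miR-133a-3p was the only tested member, with 0 and 30 on day 1 and 111 and 110 on day 0.5 (-1.95, SE 0.31, adjusted p = 0.00676), and its part in other results was not tested.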

How the data were processed

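Small RNAs of 18 libraries in 9 groups of 2 were prepared from the small RNA fraction of a PureLink kit with TruSeq small RNA reagents, per the labels, and sequenced. The authors deposited 1 table of normalized counts rounded to whole numbers, treated here as a score and not as raw counts. Per the submitters' processing notes, cutadapt, DESeq2 1.30.0 and mm10 were used. The cutadapt version, aligner, counting method, annotation release and scaling tool were not given in the sources used here. Because scaling sets only relative levels, a change in a few abundant miRNAs can move the values of all others. Columns were joined to libraries by their labels, and 0 columns were unused.

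Depth was read from the spacing of values below 1000 (tolerance 0.5). Values were raised to 27.2 (5 reads in the shallowest library) and log2 was taken. The 10 libraries of days 0 to 3 were fitted together as 5 groups (R 4.3.3, limma 3.58.1, trended and robust moderation, 5 residual degrees of freedom, no block), and miRNAs above the floor in at least 2 libraries were tested with Benjamini-Hochberg adjustment at 0.05. Raised values are identical, so the spread of miRNAs near the floor is understated and their p-values may be too low. Log2 changes carry the standard error (SE) of the fit. The scripts were tested on simulated data. Arm pairs needed both arms above the floor in 3 of the 4 libraries compared. Named miRNAs were, with means of at least 100, the 12 largest rises and 12 largest falls without overlap, 8 each of peaks, lows and starts, the 10 most abundant, the leading member of each list and the 5 arm pairs with the lowest p. Members and lists were chosen with earlier results of these data known. RefSeq held a mature sequence for 1166 of the 1390 rows; hosts are from GENCODE vM21. Alternatives changed the libraries fitted, floor, scaling, filter, moderation and weights, or left out each library, and none used raw reads.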

Additional observations from a re-analysis of the deposited data

How the results depend on the processing

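Of 1388 recomputed values for called miRNAs 1169 kept direction and call, the others kept direction only, and 0 reversed. Low depth limits what can be called: 5 reads carry a 44.7% error. The cause of the differences below was not tested, except where fewer miRNAs or libraries enter by construction.

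Fitting all 18 libraries gave 38 higher, 82 lower, 37 peaks, 14 passing lows, 24 starts up and 3 arm pairs. Fitting only the groups compared gave 10 higher, 7 peaks and 6 arm pairs, and leaving out the ICM libraries 2 arm pairs. Values as deposited with 1 added gave 0 arm pairs (13 of the 18 rises and 11 of the 36 falls held), and adding the floor value in place of raising to it gave 43 starts down and 0 arm pairs. A mean of at least 100 gave 19 lower and 6 peaks. Leaving out entries from 1900 gave 8 lower, 7 peaks and 4 starts down. Rescaling to the same total gave 5 passing lows and 2 arm pairs, no trend and robust options 5 passing lows, and array weights 1 passing low and 3 arm pairs. Rescaling by entries below 1900, chosen after seeing the data, gave 11 higher, 31 peaks and 2 arm pairs.

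Leaving out 1 library at a time gave 4 to 24 higher, 14 to 50 lower, 7 to 32 peaks, 1 to 8 passing lows, 5 to 19 starts up, 11 to 36 starts down and 0 to 2 arm pairs. The lowest peak count came without day 0.5 replicate 2 and the highest without ICM replicate 2, and starts were fewest without day 1 replicate 1.

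Replicate numbers share no stated origin, and differences between replicates of 2 groups correlated at -0.241 to 0.107, so the numbers were not taken to pair samples. With the replicate number as a block there were 14 higher, 35 lower, 17 peaks, 2 passing lows, 12 starts up, 29 starts down and 1 arm pair.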

Other observations

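The arms of miR-6982 went opposite ways, a pair picked out after its values were seen. miR-6982-5p had 66 and 83 normalized counts on day 1, against 0 and 0 on day 0.5, and was at 0 again on days 2 and 3 (at the floor 1.44, SE 0.21, limma adjusted p = 0.0049). The other arm, miR-6982-3p, was lower on day 1 than on day 0.5 in both libraries, with a change of -2.45 (SE 0.48, adjusted p = 0.0132).

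Also picked out by value, 2 more high-numbered entries were listed on day 1 and at 0 on days 2 and 3. miR-6966-5p had 78 and 91 normalized counts on day 1, against 10 and 0 on day 0.5 (1.63, SE 0.30, limma adjusted p = 0.0104), a call lost without day 0.5 replicate 2. miR-6950-3p had 63 and 85, against 28 and 0 (1.41, SE 0.35, adjusted p = 0.039). miR-222-3p, which with miR-221 represses the cell cycle inhibitor p27, had 70 and 95 on day 1, against 19 and 0 on day 0.5 (1.58, SE 0.39, adjusted p = 0.0347), and 238 and 227 on day 2. miR-483-5p, from an intron of Igf2, had 109 and 103 on day 1, against 43 and 25 on day 0.5 (1.63, SE 0.41, adjusted p = 0.0398), but 20 and 56 on day 2. The calls of miR-6950-3p, miR-222-3p and miR-483-5p were each lost without day 0.5 replicate 2 or either day 1 library. Those of miR-6950-3p and miR-222-3p were also lost without either day 2 library. With all libraries kept, they were lost in 6, 5 and 8 alternative settings. These included fitting only the groups compared and the values as deposited with 1 added.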
